A study of Mus musculus with 6 samples.

Results

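Ferritin, thioredoxin and NRF2 target genes were taken from the count table of a bulk 3'-end RNA sequencing study of MC38, a cultured mouse line of colon adenocarcinoma kept in DMEM medium. The 10 genes, Fth1, Ftl1, Txn1, Txnrd1, Prdx1, Srxn1, Hmox1, Nqo1, Gclc and Gclm, were chosen by symbol, and all 10 were found among the 24181 genes of the table. GEO's labels give 2 groups of 3 samples, MC38 cells that express STING-N153S (a form of the DNA-sensing adaptor STING with 1 amino acid exchanged) and parental MC38 cells with the genotype WT. No age, agent or treatment applies to these cultured cells. The table holds 3 columns that its plate map names as wild type, which match the parental samples by genotype and number, and 6 further columns in 2 sets of 3. The plate map gives both of these sets names that begin with SAVI, not STING-N153S. No label says which of these sets the STING-N153S samples are. The 6 columns were therefore not used, and no difference between the groups is reported. All values below describe the 3 parental libraries.

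NRF2, encoded by Nfe2l2, is a transcription factor that KEAP1 marks for degradation and that accumulates when electrophiles or peroxides modify KEAP1. With small MAF proteins it binds antioxidant response elements and raises the transcription of genes for iron storage, thiol reduction, glutathione synthesis, quinone reduction and haem breakdown. Ferritin is a shell of heavy and light chains that stores iron, and its RNAs are also held back from translation by iron regulatory proteins when iron is scarce. Colon carcinoma cells use the same genes to buffer iron and peroxides.

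Sequences of the kinds through which such genes are known to be controlled were searched in the references. The iron-responsive element is the stem-loop in the leader of the ferritin RNAs to which the iron regulatory proteins bind, and it is shown because the heavy and light chain genes share it. A bulged C followed after 5 bases by the loop CAGTGN was found upstream of the coding start in both ferritin transcripts of GENCODE M21, at transcript bases 87 to 116 of Fth1 and 78 to 107 of Ftl1. Capitals mark the loop, and the letters are written as DNA.
Fth1: ttcctgcttcaaCAGTGCttgaacggaacc
Ftl1: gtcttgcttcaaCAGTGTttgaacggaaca
The sequences are identical at 26 of 30 positions. The counts do not read translation, so no value below measures this control.

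RefSeq promoters on GRCm38.p6, from 250 bases before to 50 bases after the start, were present for 8 of the 10 genes, as 11 windows. Hmox1 and Gclc had no entry. The antioxidant response element core TGACNNNGC was searched on both strands and matched 4 of the 8 genes, in 4 of 11 windows, and 12.4% of all 32851 promoters of this length hold it. The windows differ in base composition, with a median GC content of 61.3% for the 11 windows and 52.7% for all promoters, so the shares are not of like sequences. The 4 matches are shown because they are the only windows of these genes with the core. Each is written on the strand of its gene with the core, here in its reverse complement, in capitals.
Prdx1, chr4:116685456-116685484, plus strand: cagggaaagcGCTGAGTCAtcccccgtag
Gclm, chr3:122245413-122245441, plus strand: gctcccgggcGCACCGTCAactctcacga
Txnrd1, chr10:82859104-82859132, plus strand: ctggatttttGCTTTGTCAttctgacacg
Srxn1, chr2:152105542-152105570, plus strand: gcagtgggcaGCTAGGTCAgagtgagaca
With negative positions before the start, the core lay at -133 to -125 in Prdx1 and overlapped the AP-1 site TGACTCA, which 5.20% of all promoters hold. In Gclm it lay at -134 to -126, and in Txnrd1 at -92 to -84 of 1 of 3 annotated promoters. In Srxn1 it lay after the start, at positions 29 to 37. A longer form of the core, with G before it, matched 0 of the 8 genes and 4.30% of all promoters. Read on the strand of the core, the base before it was A in Prdx1 and Txnrd1, T in Gclm and C in Srxn1. A longer form with A before the core was not searched, so its share of all promoters is not known. The other form of the core, TGAGNNNGC, was searched after the first matches had been seen. It matched Prdx1 and Srxn1, and 17.6% of all promoters. The Srxn1 match at -45 to -37 also overlapped an AP-1 site and is shown for that overlap.
Srxn1, chr2:152105469-152105497, plus strand: aaattcacccTGAGTCAGCggccgggcgc
No match was found in the windows of Fth1, Ftl1, Txn1 and Nqo1 for either form, which says only that these letters are not in those 300 bases. A match here is a description of letters, and no binding was measured.

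The 3 parental libraries, replicates 1 to 3, held 3210024 to 4020023 counts and counted 16224 to 16892 genes. A level, in CPM, is the count of a gene divided by the library total and multiplied by 1000000. A fragment next to the poly(A) tail is counted whatever the length of the transcript, so levels were compared between genes without division by length. Differences between genes in how their 3' ends are captured, annotated or mapped were not tested. Ratios between genes are therefore ratios of counts. One count was worth 0.249 to 0.312 CPM. Across all genes, 311 of 11118 tested, or 2.80%, differed between the libraries by more than counting error in a chi-square test with Benjamini-Hochberg adjustment, and 1466, or 13.2%, had an unadjusted p below 0.05. The test takes each count as a separate molecule, and whether copies of 1 molecule were collapsed is not stated. In 195 of the 311, replicate 3 was the library that stood apart the most. Without replicate 3, 61 genes varied. The label of a colon adenocarcinoma was set against markers. Of 8 colon epithelial markers 3 were analysed, Krt8, Vil1 and Lgr5, with a summed level of 0 to 0.298 CPM per library and Lgr5 at 0 in all 3. Epcam, Cdh1, Krt18, Krt20 and Cdx2 had no row under those symbols in the count table. The epithelial label was therefore checked against those 3 alone, which were at or near 0. All 5 mesenchymal markers were at 1 CPM or more, but at widely different levels. Their summed level was 3579 to 3978 CPM, most of it from Vim, which averaged 3058 ± 176 CPM (SD, n = 3). Sparc averaged 545 ± 26.1, Col3a1 115 ± 8.80, Fn1 25.9 ± 3.04 and Col1a1 3.58 ± 1.28 CPM (SD, n = 3). Vim also varied between libraries, with an adjusted p of 5.90e-12 in the same chi-square test, and was highest in replicate 3. Of 6 erythroid markers 2 had a row, the alpha globin genes Hba-a1 and Hba-a2, with a summed level of 0.249 to 0.595 CPM. Of 6 leukocyte markers 2 had a row, Ptprc and Csf1r, with 0 to 0.298 CPM. The 3 endothelial markers, Pecam1, Cdh5 and Kdr, had a summed level of 0 to 0.595 CPM. The libraries are numbered as biological replicates in the plate map, but whether each is a separate culture is not stated, so p-values measure only the spread between these samples, which may be technical.

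Together the 10 genes took 1.30% to 1.45% of the counts of each library, and Fth1 and Txn1 made up 76.4% to 79.4% of that. The summed level of the 10 genes was 13687 ± 755 CPM (SD, n = 3). Mean levels spanned 307-fold, with Txn1 highest and Nqo1 lowest. The median of the 10 genes' mean levels was 226 CPM, beside 22.2 CPM over all genes tested. In mean level 3 genes stood at 1000 CPM or more, 3 between 100 and 1000 CPM, and 4 between 10 and 100 CPM. The descending order was Txn1, Fth1, Prdx1, Ftl1, Txnrd1, Gclm, Srxn1, Hmox1, Gclc and Nqo1. Of the 9 neighbouring pairs in this order, Hmox1 and Gclc had overlapping levels between the libraries, and the other 8 did not overlap.

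**Figure D1:**
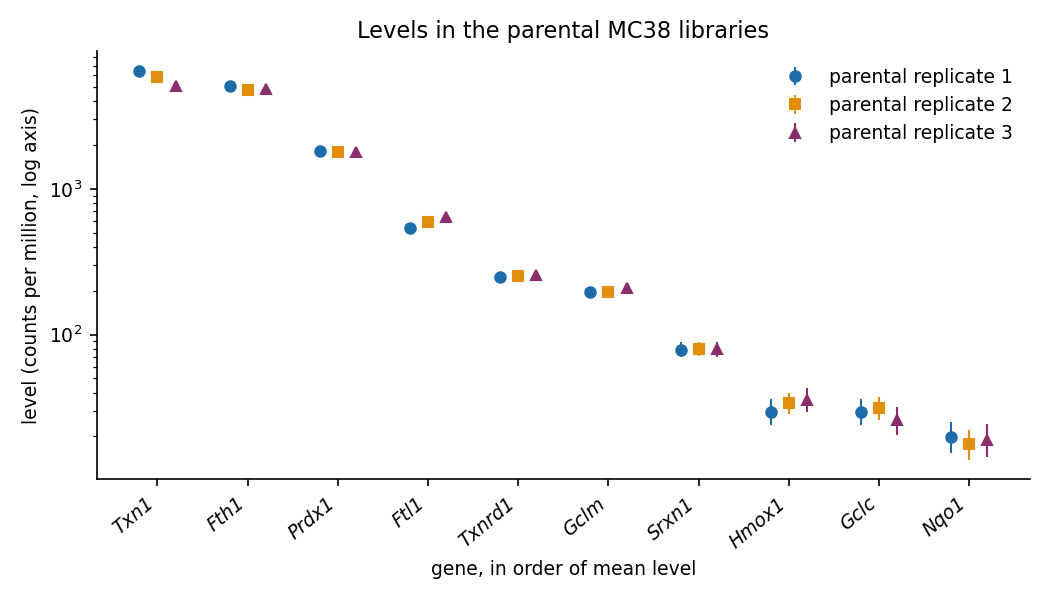
Level of each gene in CPM (log axis) in the 3 parental libraries, with bars for the exact 95% Poisson interval of the count, which covers counting error only. The genes run in order of mean level, and only the points of Hmox1 and Gclc overlap with those of a neighbour.

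Counts of ferritin heavy chain RNA were far above those of light chain RNA in every parental library. How reads that match both Ftl1 and a near-identical copy were placed is not stated, so the gap is one of counts. Fth1 (chromosome 19, 9980598 to 9985098, GRCm38), which encodes the chain that oxidises iron, had 16991, 19233 and 15469 counts in replicates 1 to 3, or 5059, 4784 and 4819 CPM. It was highest in replicate 1, and replicates 2 and 3 lay close together. The mean of 4887 ± 149 CPM (SD, n = 3) gave it rank 6 among the 24181 genes. Ftl1 (chromosome 7, 45457944 to 45459884), the light chain that aids the forming of the iron core, had 1815, 2392 and 2069 counts, or 540, 595 and 645 CPM. It was lowest in replicate 1 and highest in replicate 3, with a mean of 593 ± 52.1 CPM (SD, n = 3).

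Fth1 and Ftl1 therefore did not follow each other across the libraries. The ratio of Fth1 to Ftl1 counts was 9.36, 8.04 and 7.48 in replicates 1 to 3, with a mean of 8.29 ± 0.97 (SD, n = 3). Over the pooled counts the ratio was 8.24, with an exact (Clopper-Pearson) 95% interval of 8.02 to 8.46 that covers counting error only. The level of Ftl1 and this ratio carry a doubt over read placement. Ftl1-ps1, which GENCODE M21 annotates as protein-coding, matches Ftl1 at 99.6% identity over transcript bases 59 to 968, up to the last base of Ftl1-201, and so over the 3' end that is counted. It had 5, 5 and 2 counts. The one copy of Fth1 found among annotated transcripts, Gm6977, matches at 90.5% over bases 225 to 748 of 929 and had 35, 38 and 25 counts. No source used here says how reads that match several loci were placed, any that were dropped are in no row of the table, and their part in the ratio was not tested. Both genes varied between libraries in the chi-square test over all genes, Fth1 with an adjusted p of 3.87e-08 and a highest-to-lowest ratio of 1.06, and Ftl1 with an adjusted p of 8.87e-05 and a ratio of 1.19. Without replicate 1 neither passed, with adjusted p of 0.901 for Fth1 and 0.180 for Ftl1, and without replicate 3 the adjusted p of Ftl1 was 0.260.

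Thioredoxin RNA was the most abundant of the 10 and had the largest ratio between libraries. Txn1 (chromosome 4, 57943373 to 57956411), the small thiol protein that reduces disulphides, had 21598, 23541 and 16294 counts in replicates 1 to 3, or 6430, 5856 and 5076 CPM. It was lowest in replicate 3 and highest in replicate 1, and all 3 counting intervals were apart. The mean was 5787 ± 680 CPM (SD, n = 3), rank 4 of the table. The ratio of Txn1 to Fth1 counts was 1.27, 1.22 and 1.05 in replicates 1 to 3, so Txn1 was above Fth1 in 3 of 3 libraries but by least in replicate 3. The coefficient of variation between libraries was 11.7%, beside 0.70% from counting error alone if each count is a separate molecule. The chi-square test over all genes gave an adjusted p of 4.05e-116 and the highest library stood 1.27 times above the lowest. The adjusted p was 2.16e-22 without replicate 3, 3.87e-42 without replicate 1 and 6.72e-137 without replicate 2. In bulk samples, fewer cells with a transcript and less of it per cell cannot be told apart.

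Among the 131 genes at 1000 CPM or more, Txn1 held rank 4 by the ratio of the highest to the lowest library. The 3 above it were Mir6236 at 1.44, the mitochondrial ribosomal RNA mt-Rnr1 at 1.39 and the nuclear noncoding RNA Malat1 at 1.33. Mir6236 stood at 1589, 1593 and 1109 CPM in replicates 1 to 3, and mt-Rnr1 at 2950, 3208 and 2309 CPM. Both were lowest in replicate 3, as Txn1 was, while Malat1 was highest there with 2673, 2242 and 2975 CPM. Whether what set these RNAs apart in replicate 3 bears on Txn1 was not tested. Replicate 3 was also the library with the fewest counts, and the part of depth in the Txn1 level was not tested. The median ratio over the 131 genes was 1.06, and Fth1 held rank 62 and Prdx1 rank 114 among them.

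**Figure D2:**
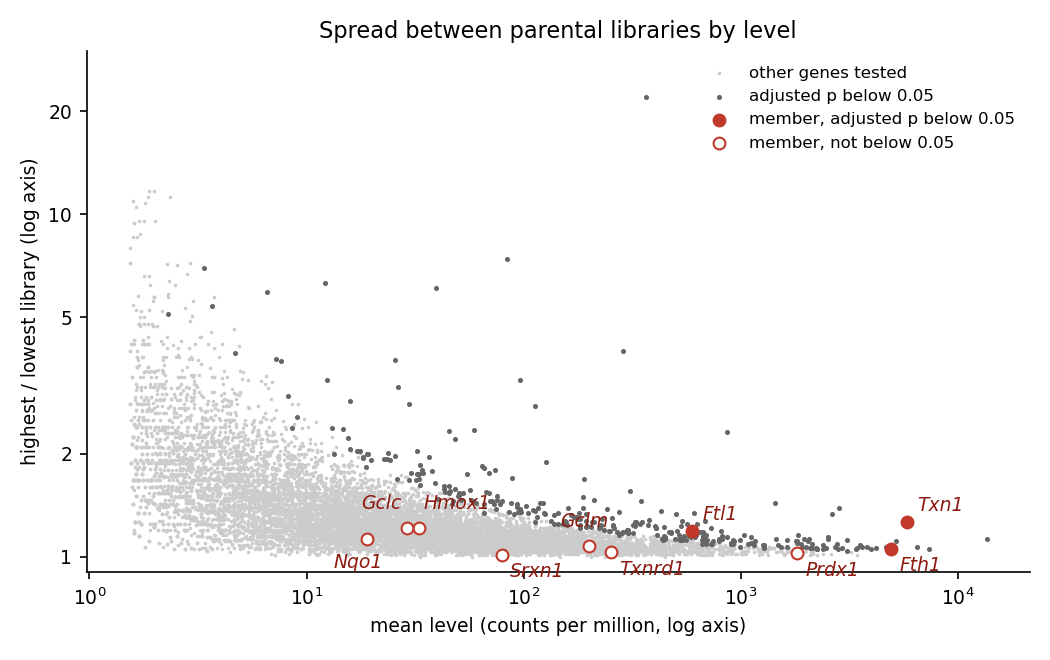
Ratio of the highest to the lowest parental library (log axis) against mean level in CPM (log axis) for the genes tested that had a count in all libraries. Filled red points are the 3 members with an adjusted p below 0.05 in the chi-square test (Txn1 at 1.27, Ftl1 at 1.19 and Fth1 at 1.06), open red points the other 7, grey points all other genes.

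A copy of part of the transcript was counted beside Txn1. Txn-ps1 is annotated as a processed pseudogene. As annotated, it aligned to bases 202 to 509 of the 1051 bases of Txn1-201 at 95.8% identity, away from the 3' end of Txn1-201. It had 158, 155 and 77 counts, or 47.0, 38.6 and 24.0 CPM, and was lowest in replicate 3, as Txn1 was. It varied between libraries with an adjusted p of 4.65e-04 in the same chi-square test, and of 0.649 without replicate 3. Its counts were 0.731%, 0.658% and 0.473% of those of Txn1. With the counts of both rows summed, the adjusted p was 2.02e-119. Copies of at least 250 aligned bases at 90% identity or more were also annotated for Ftl1 (7 genes with 27 counts in all), Fth1 (Gm6977 with 98 counts) and Prdx1 (3 genes with 25 counts). These were 0.430%, 0.190% and 0.131% of the counts of Ftl1, Fth1 and Prdx1. The closest copy of Prdx1, Gm21399, matched at 98.3% over bases 262 to 858 of the 877 bases of Prdx1-202, close to the 3' end. With read placement not stated, the levels of Ftl1, Prdx1 and the copies are uncertain, Ftl1 the most by identity and annotated reach. Copies were sought among annotated transcripts only, and how far a copy runs beyond its annotation was not searched. The 3' ends of Txn1 and Fth1 are therefore not cleared of shared reads. The other 6 genes had no such copy among annotated transcripts.

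The reductase that recharges thioredoxin did not vary detectably between libraries. Txnrd1 (chromosome 10, 82833951 to 82897712), the cytosolic selenoprotein that reduces thioredoxin with NADPH, had 832, 1012 and 823 counts, or 248, 252 and 256 CPM. The libraries lay within 1.04 times of each other and the adjusted p was 0.953, with no variation beyond counting noise detectable at this depth. Its mean was 252 ± 4.35 CPM (SD, n = 3). The ratio of Txn1 to Txnrd1 counts was 25.96, 23.3 and 19.8 in replicates 1 to 3, with a mean of 23.0 ± 3.09 (SD, n = 3) and an exact 95% interval of 22.2 to 23.9 over the pooled counts. Replicate 3 had the lowest ratio, as it had the lowest Txn1 level.

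Peroxiredoxin and its repair enzyme gave close ratios in the 3 libraries. Prdx1 (chromosome 4, 116685544 to 116700822), which reduces peroxides with electrons from thioredoxin, had 6152, 7239 and 5736 counts, or 1832, 1801 and 1787 CPM. Srxn1 (chromosome 2, 152105516 to 152111376), which restores peroxiredoxin after overoxidation, had 265, 322 and 254 counts, or 78.9, 80.1 and 79.1 CPM. The libraries differed little for both genes, with means of 1806 ± 22.9 CPM for Prdx1 and 79.4 ± 0.64 CPM for Srxn1 (SD, n = 3). The adjusted p was 0.588 for Prdx1 and 0.999 for Srxn1. The ratio of Prdx1 to Srxn1 counts was 23.2, 22.5 and 22.6, with a mean of 22.8 ± 0.40 (SD, n = 3) and an exact 95% interval of 21.2 to 24.4 over the pooled counts. For Prdx1 the coefficient of variation of 1.27% was near the 1.25% that counting error gives, and for Srxn1 0.80% stood beside 5.97%.

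RNA of the modifier subunit of glutathione synthesis was above that of the catalytic subunit. Both are parts of glutamate-cysteine ligase, the enzyme that makes the precursor of glutathione. Gclc (chromosome 9, 77754535 to 77794485), the catalytic subunit, had 99, 126 and 83 counts, or 29.5, 31.3 and 25.9 CPM. Gclm (chromosome 3, 122245557 to 122270732), the modifier subunit, had 656, 787 and 675 counts, or 195, 196 and 210 CPM. The levels of Gclc were below those of Gclm in 3 of 3 libraries. The ratio of Gclc to Gclm counts was 0.151, 0.160 and 0.123, with a mean of 0.145 ± 0.019 (SD, n = 3) and an exact 95% interval of 0.129 to 0.164 over the pooled counts. Gclc averaged 28.9 ± 2.79 CPM and Gclm 200.5 ± 8.52 CPM (SD, n = 3), with adjusted p of 0.799 and 0.716 for variation between libraries.

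Hmox1 and Nqo1, genes commonly read as reporters of NRF2 activity, had low counts. Hmox1 (chromosome 8, 75093621 to 75100589), which breaks haem down to biliverdin, iron and carbon monoxide, had 99, 136 and 115 counts, or 29.5, 33.8 and 35.8 CPM. Nqo1 (chromosome 8, 107388225 to 107403206), which reduces quinones, had 67, 71 and 61 counts, or 19.9, 17.7 and 19.0 CPM. Hmox1 was above Nqo1 in 3 of 3 libraries, with a ratio of 1.48, 1.92 and 1.89, a mean of 1.76 ± 0.24 (SD, n = 3) and an exact 95% interval of 1.47 to 2.10 over the pooled counts. The means were 33.04 ± 3.25 CPM for Hmox1 and 18.9 ± 1.15 CPM for Nqo1 (SD, n = 3). With these counts the error from counting alone is 9.26% for Hmox1 and 12.3% for Nqo1, and no variation between libraries was detectable, with adjusted p of 0.778 and 0.927. Of the genes of the table, 81.3% stood below Hmox1 in mean level and 75.3% below Nqo1.

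**Figure D3:**
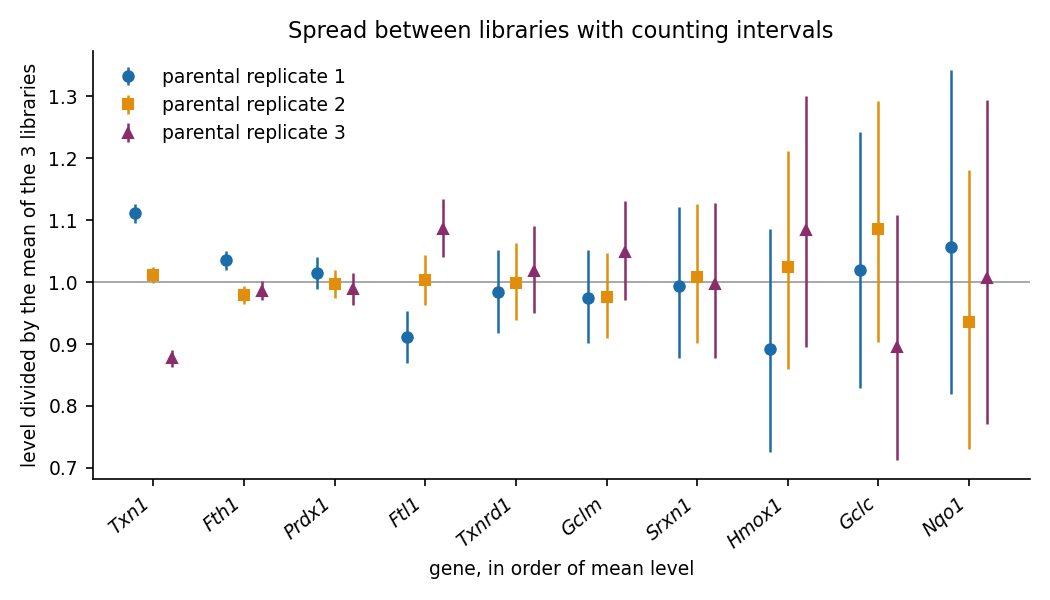
Level of each gene divided by its mean over the 3 parental libraries (linear axis), with bars for the exact 95% Poisson interval of the count. Txn1 was highest in replicate 1 and lowest in replicate 3, Ftl1 ran the opposite way, Fth1 was higher in replicate 1 than in the others, and for the other 7 genes the intervals of the libraries overlap.

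In all, 3 of the 10 genes varied between the parental libraries, beside 2.80% of all genes tested. A test of counts finds smaller differences where counts are higher, and the share of calls rose with level. Of the genes at 1000 CPM or more 46.6% varied, of those between 100 and 1000 CPM 7.66%, and of those between 10 and 100 CPM 1.68%. In the same bands 2 of 3, 1 of 3 and 0 of 4 of the 10 genes varied, and the 3 called genes are read against these shares. The number of genes called was 1 without replicate 1, which left Txn1, and 2 without replicate 3, which left Txn1 and Fth1. The 3 called genes had no common direction, with Fth1 and Txn1 highest in replicate 1 and Ftl1 lowest there. Over the 10 genes, replicate 1 was the lowest for 5, replicate 2 for 2 and replicate 3 for 3. For the genes not called these places lie within counting error, and the same tally over all genes was not made. The median ratio of the highest to the lowest library was 1.10 for the 10 genes, beside 1.22 for all genes tested and 1.06 for those at 1000 CPM or more. Most of the 10 genes stood above the median level of all genes tested, so these medians are not of genes at like levels.

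Other genes of the pathway were counted from 6 lists, with 80 of 82 listed genes analysed. The lists and the 10 genes were set with earlier results of these data known. Copies were not sought for the list genes and read placement is not stated, so a low count there need not mean little RNA. A mean of 1 CPM was reached by 79 of the 80, 10 CPM by 71 and 100 CPM by 34. The median over the 80 genes was 57.7 CPM, beside 226 CPM for the 10 genes and 22.2 CPM over all genes tested. Of 77 tested, 2 varied between the parental libraries, beside 2.80% of all genes, and 9 had an unadjusted p below 0.05, beside 13.2% of all genes.

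The regulators of NRF2 were all present. Nfe2l2 itself stood at 112, 113 and 122 CPM in replicates 1 to 3 and Keap1, its inhibitor, at 51.2, 57.7 and 53.6 CPM. All 12 genes of this list reached 10 CPM, and 4 of them 100 CPM. Rbx1, the RING subunit of the ligase that degrades NRF2, was the highest with 708, 698 and 634 CPM. Rbx1 varied between libraries with an adjusted p of 0.0179 and was lowest in replicate 3. Without replicate 3 its adjusted p was 0.923. Sqstm1, the autophagy receptor that binds KEAP1, had 263 ± 5.63 CPM, and Cul3, the scaffold of the ligase, 132 ± 6.11 CPM (SD, n = 3).

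Of 17 genes of iron uptake, storage and export analysed, 16 were at 1 CPM or more, and of the 16 tested 0 varied between libraries in the chi-square test at an adjusted p below 0.05, with 3 at an unadjusted p below 0.05, beside 2.80% and 13.2% of all genes tested. The iron chaperones for ferritin, Pcbp1 and Pcbp2, were the highest at 584 ± 25.5 and 282 ± 12.5 CPM, followed by the haem transporter Slc48a1 at 274 ± 22.5 CPM (SD, n = 3). The transferrin receptor Tfrc, which brings iron in, had 165, 147 and 143 CPM. Ncoa4, the receptor that carries ferritin to lysosomes, had 9, 9 and 4 counts, or 2.06 ± 0.73 CPM (SD, n = 3). Slc40a1, the iron exporter ferroportin, had 0, 0 and 1 counts. Ncoa4 and Slc40a1 were named after their values had been seen.

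The thioredoxin and peroxiredoxin list had a median of 168 CPM, the highest of the 6, and 7 of its 14 genes were at 100 CPM or more. Prdx2, the cytosolic relative of Prdx1, had 601 ± 22.6 CPM, Prdx4 of the endoplasmic reticulum 421 ± 5.50 CPM and Prdx6 336 ± 2.56 CPM (SD, n = 3). Prdx1 stood above each of them in 3 of 3 libraries. Txnip, which binds and inhibits thioredoxin, had 51, 88 and 34 counts, or 15.2, 21.9 and 10.6 CPM. It was lowest in replicate 3 and highest in replicate 2, with a ratio of 2.07 and an adjusted p of 0.0381 in the chi-square test. Its adjusted p was 0.481 without replicate 2 and 0.569 without replicate 3. Txnip and Txn1 were thus both lowest in replicate 3 but highest in different libraries.

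In the glutathione list all 21 genes reached 1 CPM, and 8 of them 100 CPM. The peroxidase Gpx1 had 541 ± 22.9 CPM, the amino acid transporter subunit Slc3a2 517 ± 21.9 CPM and the transferase Gsto1 446 ± 0.76 CPM (SD, n = 3). Slc7a11, the cystine transporter that pairs with Slc3a2 and is an NRF2 target itself, had 5, 4 and 6 counts, or 1.45 ± 0.44 CPM (SD, n = 3), and was named after its value had been seen. Of the 20 genes tested 0 varied in the chi-square test at an adjusted p below 0.05, with 2 at an unadjusted p below 0.05, beside 2.80% and 13.2% of all genes tested.

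Thioredoxin reductase and glutathione reductase draw electrons from NADPH. In the list for its supply, 10 of 10 genes analysed were at 10 CPM or more. The transaldolase Taldo1 had 321 ± 5.03 CPM, the lactonase Pgls 302 ± 9.73 CPM and the transketolase Tkt 244 ± 12.2 CPM (SD, n = 3). These 3 were the highest, and their enzymes do not form NADPH themselves. Idh2, Pgd, G6pdx, Me1 and Idh1, whose enzymes do, had means of 169, 130, 107, 44.1 and 25.6 CPM. They were named after their values had been seen. Of the 6 genes that remove superoxide and peroxide, 3 were at 100 CPM or more, Park7 with 442 ± 10.1 CPM and the cytosolic and mitochondrial superoxide dismutases Sod1 and Sod2 with 168 ± 4.28 and 117 ± 7.21 CPM (SD, n = 3). In these lists 0 of 10 and 0 of 5 genes tested varied in the chi-square test at an adjusted p below 0.05, with 0 and 1 at an unadjusted p below 0.05, beside 2.80% and 13.2% of all genes tested. With so few genes in each list, these counts do not set these lists apart from the table.

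**Figure D4:**
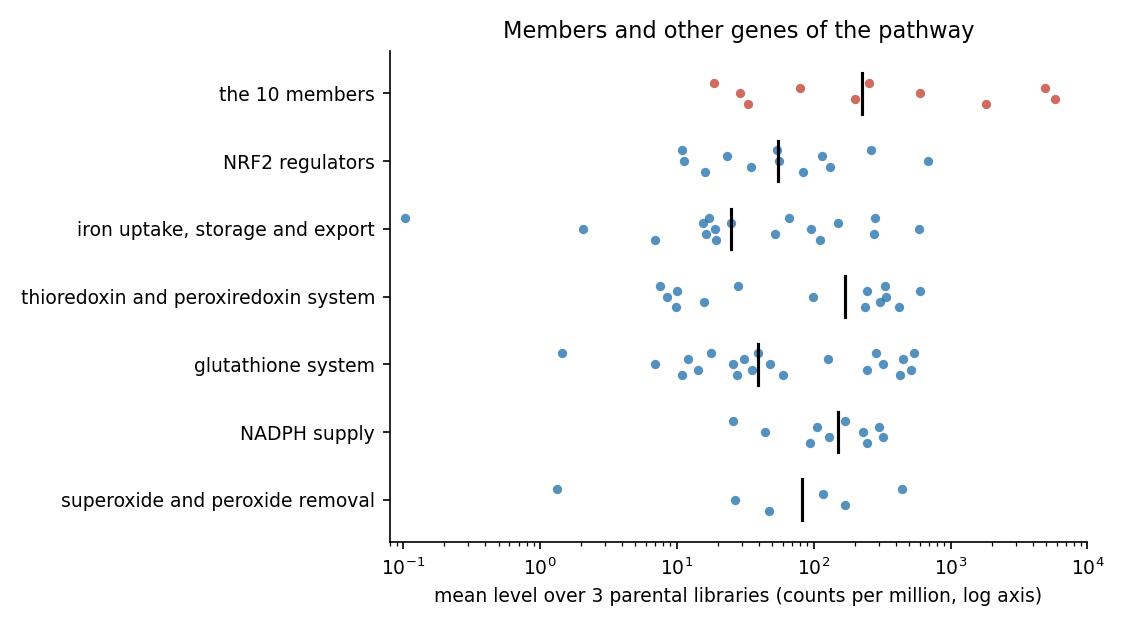
Mean level over the 3 parental libraries in CPM (log axis) of the 10 members (red) and of the genes in 6 other lists of the pathway (blue), with a black line at each median. Each point is a gene, and the medians run from 25.1 CPM for iron uptake, storage and export to 226 CPM for the members.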

How the data were processed

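The authors deposited a table of whole-number counts per gene. Per the file headers, reads were not trimmed, were aligned to GRCm38 with GENCODE M25 by STAR 2.7.5b, and were handled with Picard 2.18.26 and Drop-seq tools 1.12. No source used here says whether molecular identifiers were collapsed or how reads of several genes were placed. Intervals and tests cover counting error only, and take each count as a separate molecule. If copies of 1 molecule were counted more than once, they understate that error too. The 3 wild-type columns were used, and 6 columns of per-sample values were not.

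The 10 genes and the lists were chosen with earlier results of these data known. Named genes are the 10, the 3 highest of each list, list genes that varied, and pseudogene rows; others were named after their values were seen. The planned edgeR test of STING-N153S against parental cells was not run.

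Counts were divided by library totals to give CPM. Variation between libraries was tested over all genes whose expected count was 5 or more in every library. The test was a chi-square test with median-ratio scaling and Benjamini-Hochberg adjustment at 0.05. It was tested on simulated data with counting error only, which cannot show how it behaves under further spread between libraries. Promoters are from RefSeq on GRCm38.p6, and gene positions, biotypes and transcripts from GENCODE M21, also on GRCm38. Copies were sought with blastn from the lowest-numbered transcript of each gene in GENCODE's basic set. Txnrd1, Gclm and Ftl1 overlap other annotated genes, each with at most 17 counts in a library. Tools were R 4.3.3 with edgeR 4.0.16 and DESeq2 1.42.0, for the alternative scalings, and Python 3.11.15 with scipy 1.17.1, pandas 2.3.3 and numpy 2.4.6.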

Additional observations from a re-analysis of the deposited data

How the results depend on the processing

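No paired analysis was possible because the values come from 1 group, and the alternatives for STING-N153S against parental cells were not run for the same reason. With 1 library left out, 61 to 274 genes varied between the parental libraries, against 311, and 1 to 3 of the 10 genes, against 3. The 61 came without replicate 3 and the 1 without replicate 1. Other scalings, count minimums and the likelihood-ratio test gave 274 to 330 genes, and 3 of the 10 genes each time. The summed level of the 10 genes, 13687 CPM, was 15077 CPM when the 20 highest genes were taken out of the totals, Txn1 and Fth1 among them. Of 70 single levels under alternatives 61 moved by less than 1 SD, and the other 9 moved with those totals. Leaving out 1 of 3 libraries cannot move a mean by 1 SD, so those settings were bound to stay within it. Of 105 single tests of the 10 genes, Rbx1, Txnip and Txn-ps1, 98 kept their side of the threshold, and the other 7 lost it when 1 library was left out. The antioxidant response element core matched 4 genes, the longer letters with G before the core 0 and the other form, tried after seeing the data, 2. Longer letters with A before the core were not searched. Ratios of gene pairs were likewise bound to move by less than 1 SD when 1 library was left out, so this does not test their steadiness. Depth limits Hmox1, Nqo1 and Gclc the most.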
